A study of Mus musculus with 6 samples.

Results

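The regions described here are places inside introns where DPPA4 was listed as bound in 2-cell-like cells (2CLCs) and not in mouse embryonic stem cells (mESCs). On chromosomes 1 to 19, overlapping peaks of the GFP-negative and GFP-positive DPPA4 lists (1 bp or more in common) were joined, which gave 97623 regions. Kept were those with GFP-positive peaks and no GFP-negative peak whose midpoint lay inside a gene body of the mouse GENCODE vM21 annotation (mm10) but outside every exon and outside the promoter window of every transcript start (2.5 kb before to 0.5 kb after it). This rule gave 6565 regions, called members below. They made up 19.8% of the 33105 intronic regions of either list (Wilson 95% interval 19.4 to 20.3%), beside 18.3% GFP-positive-only regions over all 97623 regions. Since presence in one list and absence from the other chose the members, these shares are a description and carry no test. The other intronic regions were 7669 held by both lists and 18871 held by the GFP-negative list alone.

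The cells were a BL6/129 hybrid mESC line, derived from the KH2 line, whose endogenous EHMT2, an H3K9 methyltransferase, carried a dTAG degron and an mCherry reporter, and which also expressed GFP under the promoter of the retrovirus MERVL. All DPPA4 libraries came from cells of this one genotype that had been treated with the degrader for 72 h, so both groups were depleted of EHMT2 and no untreated group enters any value. Live cells were sorted into GFP-negative cells, taken as mESCs, and GFP-positive cells, taken as 2CLCs, and DPPA4 was profiled by CUT&RUN with 2 libraries for each state. The sort itself therefore selected cells in which the MERVL promoter was active. The libraries of a state were pooled by the authors into a single peak list, so there is no replicate spread for any value here and no test between the states. Lines were picked as colonies and grown on mouse embryonic fibroblast feeders, and because the lists hold peaks rather than transcripts the sorted state could not be checked against marker genes.

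DPPA4 is a SAP-domain protein of pluripotent cells and early embryos that acts with its partner DPPA2 and is known for priming and activating genes of zygotic genome activation. 2CLCs are rare cells of mESC cultures that transcribe many of the genes and repeats of the 2-cell embryo. Among those repeats is MERVL, an endogenous retrovirus of the ERVL class, which is named after the leucine tRNA that primes its reverse transcription. A retroviral element of this kind consists of internal sequence between a pair of matching long terminal repeats, and its transcription starts in the repeat at its 5′ end.

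The sequences that recurred among the members are shown here so that the values below can be read against them. Retroviral elements were found in the mm10 sequence by their structure, namely a pair of direct repeats with a tRNA primer site just inside the 5′ repeat, and then grouped by sequence. The group that held most member summits matched the leucine tRNA. An intronic element of this group lies in Csnk2a1, a catalytic subunit gene of casein kinase 2, at chr2:152263362-152269798 on the plus strand (mm10, RefSeq sequence of GRCm38.p6). It spans 6437 bp with terminal repeats of 492 bp and carried 2 members, the stronger with a −log10 q of 5.79. The bases around its primer site, chr2:152263824-152263896, are printed with the 18 bases that match the 3′ end of the tRNA in capitals.
Csnk2a1 element, end of the 5′ repeat and primer site: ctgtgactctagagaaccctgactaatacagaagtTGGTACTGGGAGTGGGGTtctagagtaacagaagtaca

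Members were also compared with each other by alignment, and those whose 200-bp summit windows were alike over at least 100 bp at 80% identity were joined into families. The windows of the representatives of 2 families are given on the plus strand of mm10, because they stand for kinds of repeat that were more frequent in members than in the other intronic classes. Capitals mark bases that aligned in at least 50% of the other members of the family. Family 4 is represented in Vmn2r63 (chr7:42911560-42911759) and family 6 in Exoc4 (chr6:33744992-33745191).
Family 4, Vmn2r63: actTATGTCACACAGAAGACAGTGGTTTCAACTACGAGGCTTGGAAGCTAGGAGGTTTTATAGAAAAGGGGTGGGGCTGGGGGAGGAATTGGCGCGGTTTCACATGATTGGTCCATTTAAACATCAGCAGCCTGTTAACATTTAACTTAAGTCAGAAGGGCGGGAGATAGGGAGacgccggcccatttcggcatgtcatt
Family 6, Exoc4: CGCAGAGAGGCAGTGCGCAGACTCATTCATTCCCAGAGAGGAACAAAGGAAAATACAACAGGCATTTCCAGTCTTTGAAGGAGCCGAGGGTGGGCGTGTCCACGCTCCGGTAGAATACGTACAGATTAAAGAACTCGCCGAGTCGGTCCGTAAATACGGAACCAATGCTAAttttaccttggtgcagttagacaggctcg

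Most members lay in single-copy sequence and belonged to no family. Of these, the window of the strongest member is printed, in Atf2 (chr2:73867868-73868067, plus strand), with no capitals because no shared part was searched for in it. Strong single-copy members with GATTNAATC, 3 in number, follow with the motif in capitals. It is a palindromic homeodomain core and was searched for on both strands (N is any base). They lie in Zfp827 (chr8:79134001-79134049), Fam169a (chr13:97102468-97102516) and Nt5c2 (chr19:46981686-46981734), all on the plus strand.
Strongest member, Atf2: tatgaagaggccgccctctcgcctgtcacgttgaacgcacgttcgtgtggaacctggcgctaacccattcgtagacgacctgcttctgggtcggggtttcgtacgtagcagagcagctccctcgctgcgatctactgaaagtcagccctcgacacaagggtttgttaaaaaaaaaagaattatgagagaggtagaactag
Zfp827: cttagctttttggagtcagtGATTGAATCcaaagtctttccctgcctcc
Fam169a: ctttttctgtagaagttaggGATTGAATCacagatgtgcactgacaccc
Nt5c2: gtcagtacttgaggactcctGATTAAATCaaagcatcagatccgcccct

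Members were weak and narrow peaks for the most part. The authors' −log10 q, the adjusted significance of a peak over the local background, had a median of 2.04 among members (quartiles 1.64 and 2.89, highest 117). Their fold enrichment at the summit had a median of 3.51 (quartiles 3.21 and 4.03) and a highest value of 20.7. Member width had a median of 555 bp, with quartiles of 352 and 886 bp and a range from 144 to 10110 bp. Only 611 members, or 9.31%, reached a −log10 q of 5. Every member was a single GFP-positive peak, which follows from the rule, since only overlapping peaks were joined. In the intronic regions of both lists, the GFP-positive peaks had a median −log10 q of 3.68 and a median fold enrichment of 4.28, and 39.3% reached 5. The rule used the listing of a peak, which depends on these values, so the strengths describe the members and support nothing further.

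Some members sat at the edge of the rule. The lowest −log10 q of a member was 1.301, and 221 members were under 1.4. The shortest gap between a member and a GFP-negative peak was 1 bp, with 5 members under 10 bp. On the other side of that limit, the smallest overlap that made a region common was 9 bp, in the 1 of 7011 common intronic regions with one peak of each list that shared under 10 bp. There were 253 members with a midpoint within 50 bp of an exon, a gene end or a promoter window, and 256 GFP-positive-only regions lay within 50 bp on the outside of these borders.

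Many members that were alike in sequence were pieces of endogenous retroviruses. The structure search found 1401 elements, of which 1345 fell into 15 groups of at least 10 elements. Summits of 968 members lay in one of these groups, which is 14.7% of members (13.9 to 15.6%). The share was 1.92% (1.63 to 2.25%) in intronic regions of both lists and 1.20% (1.05 to 1.36%) in those of the GFP-negative list alone. A regular grid of intronic positions, placed every 5 kb under the same rule as the members, gave 4.04% (3.85 to 4.25%) over 37423 positions searched. The share among members thus lay above those of both other classes and of the grid, with intervals that did not overlap. These intervals cover counting error only and treat regions as independent, which neighbouring peaks on one element are not.

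The leucine-primed group made up the largest part of these matches. It comprised 33 structurally complete elements with a median span of 6438 bp and a median terminal repeat of 493 bp. A total of 484 members lay in it, 69 in a terminal repeat and 415 in internal sequence, or 7.37% of members (6.77 to 8.03%). Only 5 of 7669 regions of both lists matched it (0.0652%), as did 4 of 18871 GFP-negative-only regions (0.0212%). Of the grid positions 77 matched, or 0.206% (0.165 to 0.257%). MERVL is one family of this leucine-primed class, but no MERVL consensus was at hand, and whether the group is MERVL was not tested. The other leucine-primed groups gave a different picture. The group with a terminal repeat of 347 bp held 0.701% of members (0.526 to 0.933%), close to its 0.494% of the grid (0.428 to 0.571%). The group with a repeat of 391 bp held 0.746% of members (0.565 to 0.985%), and it held 2.56% of the grid.

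The other element groups seen in over 1% of members were a phenylalanine-primed and a glutamine-primed one. A group of 701 elements, whose primer site matched phenylalanine and serine tRNAs and whose terminal repeat had a median of 357 bp, held 164 members, or 2.5% (2.15 to 2.90%). The grid gave 0.361%, regions of both lists 0.209% and GFP-negative-only regions 0.0265%. Phenylalanine primers are known from the intracisternal A particles, a young retrovirus family of the mouse, and identity with that family was not tested. The window of family 6 in Exoc4 printed above belongs to this group. A group of 56 elements matching glutamine and threonine tRNAs, with a repeat of 430 bp, held 89 members, or 1.36% (1.10 to 1.67%), and 71 of these summits lay in the terminal repeat. No GFP-negative-only region matched it, and the grid gave 0.0347%. Of the 71 members of family 4, whose Vmn2r63 window is printed above, 63 fell in this group.

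The matches to 7SL RNA were about as many as those to the leucine-primed group and behaved differently. 7SL is the RNA of the signal recognition particle, from which the B1 short interspersed repeats of mouse derive. Windows of 490 members matched it, or 7.46% (6.85 to 8.13%), against 2.31% (1.995 to 2.67%) of regions of both lists, 1.27% (1.12 to 1.44%) of GFP-negative-only regions and 1.18% (1.07 to 1.29%) of the grid. Family 1, the largest family with 383 members, was mostly of this kind, and 76.5% of its members matched 7SL RNA. Its members were weak, with a median −log10 q of 2.07. In contrast to the leucine-primed group, the share with a 7SL match did not grow with strength. It was 7.69% of members with a −log10 q under 2, 7.73% of those from 2 to 5, 5.75% of those from 5 to 10 and 1.12% (1 of 89) of those at 10 or more.

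**Figure D1:**
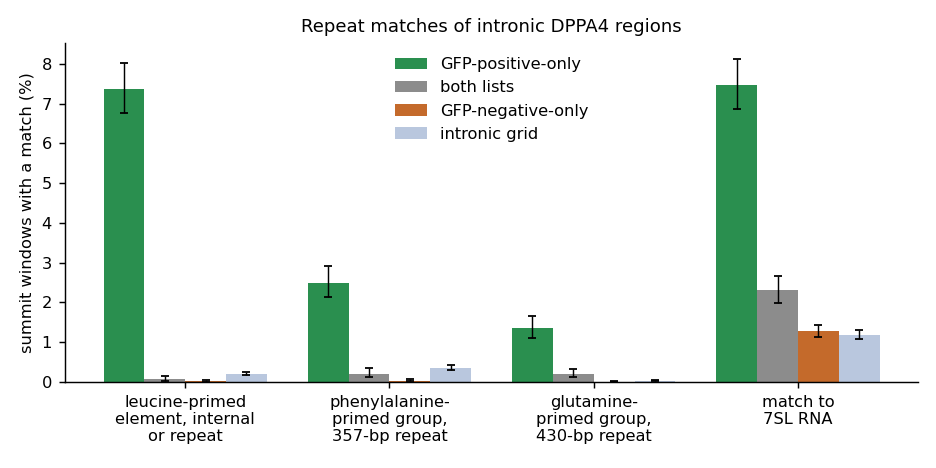
Share of summit windows (y axis, %) that matched each of 3 retroviral element groups or 7SL RNA, for GFP-positive-only intronic regions (green), intronic regions of both lists (grey), GFP-negative-only intronic regions (orange) and a grid of intronic positions (blue). Bars start at 0, and error bars give the 95% interval (Wilson) of each share. The leucine-primed group stands at 7.37% of members and 0.206% of the grid, and the 7SL match at 7.46% and 1.18%.

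Strong members were more often on the leucine-primed element than weak ones. It took 2.98% (2.45 to 3.63%) of the 3187 members with a −log10 q under 2, 7.48% (6.56 to 8.52%) of the 2767 from 2 to 5, 27.4% (23.7 to 31.4%) of the 522 from 5 to 10 and 43.8% (34.0 to 54.2%) of the 89 at 10 or more. The 484 members on it had a median −log10 q of 3.94 (quartiles 2.09 and 6.43, highest 35.2), while the 6081 other members had a median of 1.93 (quartiles 1.60 and 2.71). Members on the element were also wider, with a median of 1524 bp beside 534 bp. The plot of strength shows that 37.6% of the members on the element reached a −log10 q of 5, close to the 39.3% of GFP-positive peaks in regions of both lists, whereas 7.05% of the other members did. At a −log10 q of 15 the curves had parted, with 0.826% of element members and 14.2% of the common regions at or above it.

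**Figure D2:**
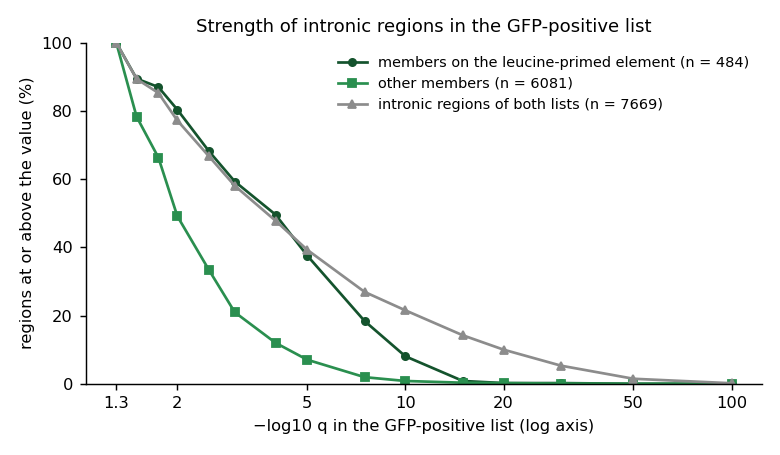
Share of intronic regions (y axis, %) at or above each −log10 q in the GFP-positive list (x axis, log scale), for 484 members on the leucine-primed element (dark green circles), 6081 other members (green squares) and 7669 regions of both lists (grey triangles). Members on the element run along the common regions up to about 5, where they stand at 37.6% and 39.3%, while the other members stand at 7.05%.

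The leucine-primed element was then followed from the side of its genomic copies. A complete element of the group was aligned to chromosomes 1 to 19, which gave 2980 copies, 625 of them near full length (at least 80% of the element covered). Of the 877 copies with their middle in an intron, 206 were near full length, with a median identity to the element of 98.2%. A GFP-positive-only summit was found on 196 of these 206, or 95.1% (91.3 to 97.3%), and 94.2% (90.1 to 96.6%) held a member, the remainder being regions whose own midpoint was not intronic. Regions of both lists had a summit on 4 of the 206 copies (1.94%) and GFP-negative-only regions on 0 of 206, which allows a share of up to 1.46% (3 counts). Intronic copies that kept only part of the internal sequence, with a median identity of 91.8%, carried a GFP-positive-only summit in 57 of 246 cases (23.2%, 18.3 to 28.8%). Copies reduced to a terminal repeat, with a median identity of 87.0%, carried one in 33 of 425 cases (7.76%, 5.58 to 10.7%). Thus, the share fell with the amount of element that was left, and length and identity fell together and cannot be told apart here.

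**Figure D3:**
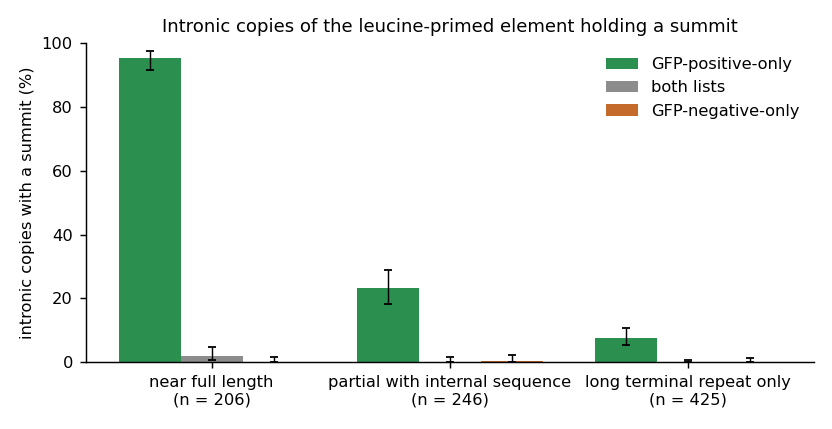
Share of intronic copies of the leucine-primed element (y axis, %) that carried a summit of each class of region, for 206 near full length copies, 246 partial copies with internal sequence and 425 copies of the terminal repeat only. Error bars are 95% intervals (Wilson). GFP-positive-only summits were on 95.1%, 23.2% and 7.76% of these copies, and the other classes stay at or under 1.94%.

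Copies outside genes were similar. Among 397 intergenic copies of near full length, 372 (93.7%, 90.9 to 95.7%) had a GFP-positive-only summit, with an interval that overlapped that of the intronic copies. Inside genes, 82 of 89 near full length copies lying on the same strand as their host gene held a member, and so did 99 of 104 on the opposite strand. The reads were aligned by the authors in a mode that kept reads with many genomic matches and placed each at one of its best positions. Members on the element had a median copy number of 611, meaning that the 31-base words of their summit windows occurred a median of 611 times in the genome. Which of the near-identical copies gave rise to the reads therefore cannot be told apart in these lists, and a peak on nearly every copy does not show that every copy was bound.

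A near full length copy often held several members. Of the 206 copies, 12 held none, 74 held 1, 74 held 2, 39 held 3 and 7 held 4 or more, with a highest number of 5. These copies accounted for 368 members. Members on the same element share their sequence and are not independent of each other. Along the element, 480 member summits could be placed, 42 in the 5′ repeat, 414 in the internal sequence and 24 in the 3′ repeat. A summit on a copy of the repeat alone can match both repeats, and equal matches were counted in the 5′ one. Intronic copies of this kind carried 33 GFP-positive-only summits. The counts of 42 and 24 therefore do not compare the 5′ with the 3′ repeat. The plot of summits along the element shows its highest point in the internal sequence, with 60 summits in bases 3601 to 3700 and 34 in bases 3801 to 3900. A smaller peak with 27 summits lay in bases 301 to 400, counted as 5′ repeat under the same limit. The remaining bins of 100 bases held between 0 and 21 summits.

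**Figure D4:**
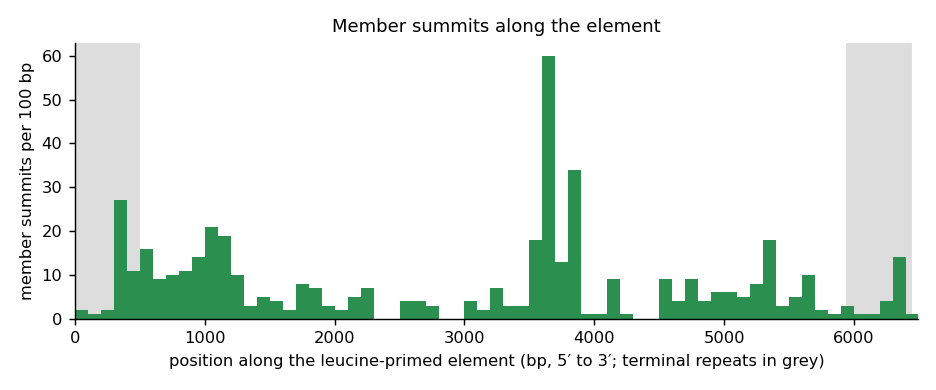
Number of member summits in each 100 bp (y axis) along the leucine-primed element from its 5′ to its 3′ end (x axis, bp). Grey bands mark the terminal repeats, and the tallest bar, with 60 summits, covers bases 3601 to 3700 of the internal sequence. Summits that matched both repeats equally well stand in the 5′ band.

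Families of members alike in sequence gave a similar picture. There were 38 families of at least 10 members, with 1476 members in all (22.5%, 21.5 to 23.5%), and in 25 of them most members matched a retroviral element group. Family 2, with 84 members, lay in the leucine-primed element and had a median −log10 q of 7.49. It had 4 matches among the grid positions, and none in either of the other intronic classes. Family 12, in Skint6, and family 17, in a stretch annotated to both Ate1 and Fgfr2, came from the same element, with medians of 6.16 and 5.94. Family 5, of single-copy windows with its representative in the AMPA receptor subunit gene Gria1, was weaker, with 67 members, a median of 1.93, and 1.02% of members against 0.227% of the grid. Family 9, with 51 members, had similar shares in members (0.777%) and in the grid (0.729%).

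Other families were more frequent in regions of both lists. Family 3, of GC-rich windows (median GC 62%) with its representative in Khdrbs2, took 1.16% of members and 6.55% of regions of both lists. Family 14, with a median GC of 61.5%, took 0.518% of members and 9.82% of regions of both lists. Together with the retroviral matches, this separated the multi-copy sequence of members from that of regions of both lists. A copy number of 10 or more was found in 1248 members (19%, 18.1 to 19.98%) and in 21.6% (20.7 to 22.6%) of regions of both lists, against 2.24% of GFP-negative-only regions and 6.79% of the 187111 grid positions. Among the multi-copy members 37.7% (35.1 to 40.5%) lay on the leucine-primed element and 31.2% (28.7 to 33.8%) on another element group. Among the multi-copy regions of both lists 0.181% lay on the leucine-primed element, while 44.7% (42.3 to 47.1%) were alike the representative of family 14 and 29.2% (27.0 to 31.4%) that of family 3. Similar shares of multi-copy sequence in members and in common regions were thus made up of different repeats.

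The base composition of members lay between common regions and intron at large. Median GC of the 200-bp windows was 50% in members, 56.5% in regions of both lists, 52.5% in GFP-negative-only regions and 42.5% on the grid. Members had a median of 1.5 CpG per 100 bp, regions of both lists 2.5 and the grid 0.5. Soft-masked bases, which mark repeats in the RefSeq sequence, made up 47.6% of member sequence, 31% of that of common regions, 16.5% of that of GFP-negative-only regions and 29.5% on the grid. In members outside the element groups the soft-masked share was 31.5%, close to that of common regions and the grid.

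The 5 motifs searched gave small shares. GATTNAATC was found in 45 of 6565 member windows (0.685%, 0.513 to 0.916%), in 0.209% (0.129 to 0.339%) of regions of both lists, in 0.0848% (0.0522 to 0.138%) of GFP-negative-only regions and in 0.227% (0.207 to 0.2498%) of the grid. The interval of members lay above the other 3, although 45 windows are few. Of the 45 windows, 40 were single-copy and 2 lay in an element group. Their median −log10 q was 1.97, and none reached 5. The 3 printed above had values of 3.44 to 4.75. In windows of 400 bp the share was 1.81% (1.52 to 2.17%) in members and 0.469% (0.339 to 0.649%) in regions of both lists. TGCACAC was in 5.39% of member windows, 3.23% of regions of both lists, 5.01% of GFP-negative-only regions and 4.60% of the grid. ATGCAAAT, the POU octamer, was in 1.19% of members (0.953 to 1.48%), 2.37% of GFP-negative-only regions (2.16 to 2.60%) and 1.54% of the grid. TCAAGGTCA, a motif of NR5A and ESRR receptors, was in 0.777% of members (0.591 to 1.02%), 1.35% of GFP-negative-only regions (1.20 to 1.53%) and 0.487% of the grid. The last pair of motifs was thus rarer in members than in GFP-negative-only regions, with intervals that did not overlap. Regions of both lists stood near members, at 1.03% (0.827 to 1.28%) for ATGCAAAT and 0.678% (0.518 to 0.888%) for TCAAGGTCA. These intervals overlapped those of members, so shares below those of GFP-negative-only regions were not particular to members. Against the grid the 2 motifs differed. TCAAGGTCA in members lay above the grid interval of 0.457 to 0.520%, and ATGCAAAT lay just below that of 1.485 to 1.597%. CACACACA was in 7.25% of members, 6.99% of the grid, 4.82% of GFP-negative-only regions and 3.31% of regions of both lists. It overlaps TGCACAC by the letters CACAC. All were searched on both strands, and a match is a run of letters in a window and not a site.

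The strongest member stood far from the rest. It lay in an intron of Atf2, a bZIP transcription factor gene, at chr2:73867893-73868361, with a −log10 q of 117, a fold enrichment of 20.7 and the nearest GFP-negative peak 23.8 kb away. Its window, printed above, was single-copy by the words of 31 bases, but 14 other stretches of chromosomes 1 to 19 were alike over 100 to 175 bp at 79.4 to 98.4% identity, and none of the 5 motifs was in it. Whether it is a piece of ribosomal RNA sequence was not tested for want of a complete reference, and if so its −log10 q, fold enrichment and single-copy count may not describe this place in Atf2 alone. Among the 10 strongest members, 3 lay in Sfi1, a centrosomal centrin-binding protein gene, with −log10 q values of 41.0, 34.1 and 25.6 but fold enrichments of only 4.56, 3.55 and 3.36. The strongest member on the leucine-primed element, in Atf7, had a −log10 q of 35.2 and a fold enrichment of 14 over 4639 bp. Of the remaining members, 1 was in Pisd-ps2 (31.2), 3 were at the Sp100 cluster of chromosome 1, in A530032D15Rik (29.6), Gm16025 (26.3) and C130026I21Rik (23.1), and 1 was in Platr25 (24.0, fold 11.4).

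Most host genes held a single member. At least 1 member was found in 3928 genes, of which 2587 (65.9%) held exactly 1, 1130 held 2 to 4 and 211 held 5 or more. In 1323 of the genes with a member there was no other intronic region. Members lay in a protein-coding gene in 87.3% of cases (86.5 to 88.1%), against 85.3% of grid positions. Long genes were not richer in members. Genes with over 100 kb of intron held 35.7% (34.6 to 36.9%) of members and 58.4% of grid positions, and the share of their intronic regions that were members was 16.9% for 100 to 300 kb of intron and 19.6% for over 300 kb, beside 23.3% for under 10 kb.

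The 20 genes with most members held 457 of them. Gm20388, a gene model of chromosome 8 from 119910841 to 124345722, held 85, yet these were only 12% of its 708 intronic regions, below the 19.8% of all intronic regions. Dst, which codes for the cytoskeletal linker dystonin, held 35 of 63 (55.6%), and Fgfr2, a fibroblast growth factor receptor gene, 33 of 128 (25.8%). As annotated, Fgfr2 runs from 130162451 to 133123350 on chromosome 7 and overlaps at least Ate1. Its 33 members therefore need not lie in introns of the receptor gene alone. On chromosome 4, the lincRNA gene C230088H06Rik held 31 of 40. The lincRNA gene Gm26624 lies wholly inside it and held 28 of 35, and these regions count in both genes. Gm26573, a lincRNA gene that overlaps only a short stretch of C230088H06Rik, held 31 of 43. At the Sp100 cluster C130026I21Rik held 31 of 38 and the pseudogene Gm2619 24 of 28. These genes overlap in part, and a region inside both counts in each. In Gm21847, an antisense gene of chromosome 5, all 28 intronic regions were members.

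Several protein-coding genes followed. All 15 intronic regions were members in each of Rhbdd1 (a rhomboid protease), Ube2w (a ubiquitin-conjugating enzyme) and Sfi1. Dlgap2, a postsynaptic scaffold gene, held 25 of 34, Ankrd44 17 of 22, Glis1, a zinc finger factor gene, 16 of 22, and Mrtfa, a coactivator of serum response factor, 15 of 20. Bbs9, a BBSome subunit gene, held 14 of 19. In Camkmt (15 of 31), Rptor (15 of 36), which codes for a subunit of mTORC1, and Arl15 (14 of 31), members were less than 50% of the intronic regions. The leucine-primed element accounted for few of these members, with at most 4 of a gene's members on it (Fgfr2) and none in Dst, Gm26573, Gm21847, Sfi1 and Ube2w.

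**Figure D5:**
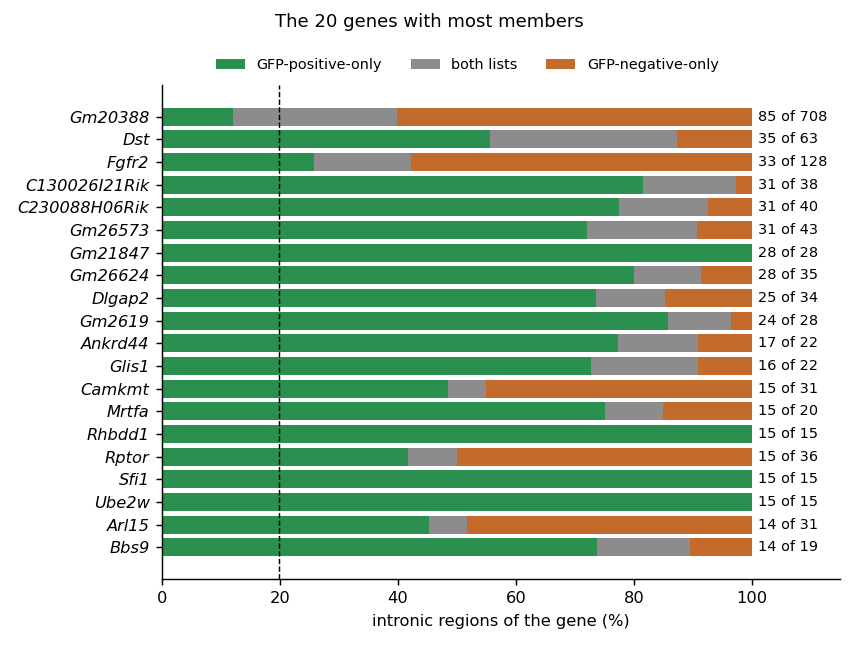
Intronic regions of the 20 genes with most members, as shares of the gene's intronic regions (x axis, %): GFP-positive-only (green), both lists (grey) and GFP-negative-only (orange). The number of members and of all intronic regions stands at the right, and the dashed line marks the 19.8% of all intronic regions. Gm20388 lies below the line at 12%, and 4 genes consist of members alone.

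Per length of intron the order was different. Over all introns there were 0.700 members per 100 kb. Among genes with at least 5 members the densest was Sfi1, with 57.2 members per 100 kb, followed by AC102124.1 with 52.2 and Gm35974 with 50.7. Rnf41, a ubiquitin ligase gene, had 31.7, and Gm6264, Sp140 and A530032D15Rik of the Sp100 cluster had 31.5, 29.1 and 27.3. Gm16163 and 2810004N23Rik, which overlap on chromosome 8, had 29.3 and 27.4, and in each of them 3 members lay on the leucine-primed element. Gm35974, Gm6264 and Sp140 had 3, 3 and 2 members on that element, and the remaining dense genes had none. Nlrp12, which codes for a NOD-like receptor, had 25.8 with 6 members.

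In genes of the 2-cell stage, members made up 25 of 43 intronic regions (58.1%, 43.3 to 71.6%), beside 19.8% of all intronic regions. This amounts to 5.39 members per 100 kb of intron, and 15 of the 38 genes listed held a member. None lay on the leucine-primed element, and 3 of the 25 were multi-copy. Sp110, a nuclear body protein gene of the Sp100 cluster, held 3, the strongest with a −log10 q of 9.05. Usp17le, of a deubiquitinase family, held 2, with 8.10 and 7.09. The homeobox genes Obox1 and Obox3 held 5 and 3, of which 1 lies inside both, and the strongest value was 7.38 in Obox1. Zscan4c, Zscan4d and Zscan4f, zinc finger genes that mark 2CLCs, held 1 each, at 2.66, 4.37 and 4.30. Kdm5b, an H3K4 demethylase gene, held 3, and Dppa2, the partner gene of Dppa4, held 1 near the lower limit of the list, at 1.41. Many of these genes have near-identical copies, and reads could be split or exchanged among them.

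In genes of the naive pluripotent state 4 of 59 intronic regions were members (6.78%, 2.67 to 16.2%), beside 19.8% of all intronic regions. Per length of intron this was 1.03 members per 100 kb, against 0.700 over all introns. Of the 59 regions 41 were GFP-negative-only, so the low share did not come with a low density of members. These members lay 1 each in Esrrb, Fgf4, Tcl1 and Tet1. Esrrb, an orphan nuclear receptor gene, had 1 member among 24 intronic regions, of which 21 were GFP-negative-only. This member lay on the leucine-primed element, 0.234 kb from a GFP-negative peak. In the list of chromatin repressors 23 of 69 regions were members (33.3%, 23.4 to 45.1%), in 14 genes, beside the same 19.8%. Hdac1, a histone deacetylase gene, held 4, up to a −log10 q of 6.12, the demethylase gene Kdm1a 4, and Ehmt1, the gene of the partner of EHMT2, 1 at 5.34. None of these 23 was on the leucine-primed element.

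A list of long genes, mostly of neuronal adhesion and synapse, had 44 members among 306 intronic regions (14.4%, 10.9 to 18.8%), beside 19.8% of all intronic regions. This was 0.110 members per 100 kb, against 0.700 over all introns. The other classes were sparse too, with 121 regions of both lists and 141 GFP-negative-only regions in 40090 kb of intron. Over all introns these classes stood at 0.818 and 2.01 per 100 kb, so the low density was not particular to members. Wwox, Fhit and Macrod2 of this list are not adhesion or synapse genes. Csmd1 and Wwox held 5 each, and Lrp1b held 4. Here 28 of the 44 members were multi-copy and 12 lay on the leucine-primed element. Germline and meiosis genes had 10 of 38 (26.3%, 14.97 to 42.01%), with 6 in Tex14, which is needed for germ cell bridges, 3 in Tdrd9 and 1 in the piRNA helicase gene Mov10l1. Primitive endoderm genes had 6 of 33 (18.2%, 8.61 to 34.4%), in Hnf4a, Lamb1, Col4a2 and Gata4. The intervals of the germline and primitive endoderm lists both take in the 19.8% of all intronic regions. Trophoblast genes had 0 of 14 intronic regions, which allows a share of up to 21.4% (3 counts) and so takes in the 19.8% too.

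Within genes, members were placed much as the other intronic regions were. The median distance to the nearest transcript start was 7.63 kb for members (quartiles 3.73 and 16.8 kb), 7.46 kb for regions of both lists, 8.53 kb for GFP-negative-only regions and 14.01 kb for the grid. Of the members that could be assigned to an intron of the longest transcript 28.0% (26.9 to 29.2%) lay in its initial intron, fewer than the 32.7% (31.5 to 33.8%) in regions of both lists and the 34.5% (33.8 to 35.3%) in GFP-negative-only regions and more than the 24.8% (24.3 to 25.2%) of the grid. Relative to the length of that transcript, the median position of members was 0.468, where 0 is its start and 1 its end.

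Members often lay close to other peaks. The nearest GFP-negative peak was a median of 6.02 kb away (quartiles 1.80 and 18.3 kb). It lay within 500 bp for 9.03% of members, within 2000 bp for 27.2% and within 10 kb for 62%. Members on the leucine-primed element were farther from such peaks, with a median of 18.9 kb beside 5.46 kb for the other members. Another member was found within 10 kb of 43.9% of members (42.7 to 45.1%). This held for 86.6% (83.2 to 89.3%) of the members on the element, several of which share one copy, and for 40.5% (39.3 to 41.7%) of the others. By chromosome, the share of intronic regions that were members ran from 15.5% on chromosomes 6 and 17 to 28.2% (26.3 to 30.1%) on chromosome 1, where the Dst and Sp100 regions lie.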

How the data were processed

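Processing up to the peak lists was done by the authors: adapters were trimmed with bbduk, reads were aligned with STAR (2.7.10) with reads of many genomic matches kept, duplicates were removed with Picard (2.26.0), reads in high-signal blacklist regions of mm10 were dropped (SAMtools 1.14), and peaks were called with MACS2 (2.2.6) on fragments (bedtools 2.30.0). Per the labels, versions and libraries are as given, and each deposited list pools its 2 libraries. The deposited −log10 q and the deposited fold enrichment, a ratio over the MACS2 background, were used as they stand. Whether the IgG libraries (1 GFP-negative, 1 bulk) served as control is not given in the sources used here, and they were not analysed here. The study's methods state a sequencing depth for each sample, but the number of reads kept after filtering is not given in the sources used here. Unused per-sample columns numbered 0.

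Intervals are Wilson 95% intervals. Copy number is the median genomic count of 31-base words in the 200-bp summit window. Elements had direct repeats of 200 to 1200 bp, a span of 3 to 12 kb and a primer site of TGG and 15 further tRNA bases with at most 1 mismatch. A match counted when at least 25% of a group's elements held it, over at least 100 bp at 80% identity (7SL RNA: 40 bp). Alignments were made with blastn (2.17.0), statistics with Python (3.11.15), numpy (2.4.6), pandas (2.3.3) and scipy (1.17.1). The grouping into classes and families and the motif counts were tested on simulated data. The members and gene lists were chosen with earlier results of these data known, and the searches for element groups, element copies and 7SL RNA were added after seeing the data. Genes named are the 20 with most members, the 10 densest among those with at least 5 members, the hosts of the 10 strongest members and of the printed sequences, list genes with a member, and, chosen after their values were seen, hosts of further family representatives. With 1 pooled list per state, no test was run. The alternatives tried were other merging gaps, −log10 q limits, windows, copy number limits, identity limits, midpoint against summit and gene types. Some items are not reported here.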

Additional observations from a re-analysis of the deposited data

How the results depend on the processing

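No paired analysis was possible because the libraries of a state share 1 pooled list, and no library could be left out for the same reason. Of 57 settings, 18 kept the value within its interval (or a count within 1.5 times) and 39 did not. Read totals after filtering are unknown for both lists, so absence from the GFP-negative list does not show that DPPA4 was absent there. The other classes of region and the grid were not recomputed under these settings, so differences from them were not rechecked, and the cause of each shift was not tested beyond what the setting itself removes.

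The number of members was 3599 with gaps of up to 2000 bp merged, 3867 after peaks under a −log10 q of 2 were dropped, 1143 after those under 5 were, and 1721 with the 20000 strongest peaks of each list. The share of intronic regions that were members was 18% with gaps of up to 500 bp merged, 15.7% with 2000 bp, 16.5% at a −log10 q of 2, 12.2% at 5 and 29.5% with the strongest 20000.

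Among members with a −log10 q of at least 5, the soft-masked share was 70.4%, the multi-copy share 43.4%, the share with another member within 10 kb 25.4%, the median distance to a transcript start 9.59 kb, the share in families 44.5%, that on the leucine-primed element 29.8% and that with a 7SL match 5.07%, and 69.9% of near full length intronic copies held a member. At a limit of 2 in both lists the soft-masked share was 51.1%, the multi-copy share 23.0% and the share with a neighbour 37.7%. Without members that had a GFP-negative peak within 2000 bp, these were 52.1% soft-masked and 23.5% multi-copy, GC was 49.5% and 9.63% lay on the leucine-primed element. Windows around the midpoint gave 41.3% soft-masked and a GC of 49.0%. A copy number of 2 or more gave 28.1% and of 100 or more 13.0%. Families at 90% identity held 16.3%.

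In windows of 400 bp the motif shares were 1.81% (GATTNAATC), 9.99% (TGCACAC), 2.04% (ATGCAAAT), 1.48% (TCAAGGTCA) and 13.0% (CACACACA). In single-copy members, TGCACAC was at 6.28%, ATGCAAAT at 0.743% and CACACACA at 8.66%, 37.9% had a neighbour within 10 kb, and the distance to a transcript start was 6.95 kb.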

Other observations

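Among the 15 element groups, those with few members included a group of 85 elements matching glutamine, proline and threonine tRNAs. It took 0.335% (0.221 to 0.507%) of members and 0.509% (0.372 to 0.694%) of regions of both lists. A group of 68 elements matching a lysine tRNA took 0.137% (0.0721 to 0.260%) of members and 0.244% (0.183 to 0.325%) of GFP-negative-only regions. A group of 220 elements matching glycine and proline tRNAs took 18 members (0.274%), 0 of 7669 regions of both lists and 0 of 18871 GFP-negative-only regions, which allow shares of up to 0.0391% and 0.0159% (3 counts). For the groups of 85 and 68 elements the intervals given overlapped, so no difference between those classes is read from them. For the group of 220 elements the interval of members was 0.174 to 0.433%, above both limits. No hypothesis was tested on these values.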
